A study of Rattus norvegicus with 6 samples.

Results

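Differentially methylated regions (DMRs) of the CHH context that lie in promoters and exons were examined in brain microvascular endothelial cells (BMECs) of the rat hippocampus. A region was included when the annotation table assigned it to a promoter, a transcription start site (TSS), an exon, a 5′ or 3′ untranslated region or a transcription end site (TES). This gave 581 CHH regions out of 9996 annotated CHH regions and 24862 annotated regions of all contexts. The regions were assigned to 609 genes, of which 98 carried an identifier without a symbol. The cells came from male Sprague-Dawley rats that were either subjected to 8 weeks of chronic unpredictable mild stress (CUMS) or left unstressed (Ctrl). Each group held 3 samples and the cells were sorted as CD45-/CD31+, that is, without the leukocyte marker and with the endothelial marker Pecam1. Neither the labels nor the study's methods as used here state whether each sample came from a single rat. The tables hold methylation only, so the purity of the sorted cells was not checked against marker expression.

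In mammals most cytosine methylation is found at CG dinucleotides, where it is copied after each cell division by Dnmt1. CHH sites, in which H is any base other than G, have no symmetric partner on the opposite strand, so methylation there has to be written anew, chiefly by Dnmt3a and Dnmt3b. CHH methylation is best known from neurons and embryonic stem cells and is generally low in other somatic cells. Promoters and first exons often lie in CpG islands, which are mostly unmethylated at CG sites in active genes.

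Each region has only the authors' mean of the samples of a group as its level, in CUMS and in Ctrl. Replicate errors could not be given, the sequencing depth of each region is unknown, and no difference was tested. A group mean of a few percent may come from all 3 samples or from only 1 of them, and these cases cannot be told apart. Every comparison below is a description of the listed regions. All regions had been chosen by the authors as differing between the groups, so the presence of a difference is not a result.

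Of the 581 regions, 460 were hypermethylated and 121 were hypomethylated in CUMS (79.2% hypermethylated). Among all annotated CHH regions the hypermethylated share was 78.5%, so the direction of the promoter and exon regions was close to that background. The hypermethylated regions had a median of 6.62% in CUMS and 0.190% in Ctrl, with a median difference of 6.31 percentage points and a range from 2.22 to 26.7. The hypomethylated regions had a median of 0.139% in CUMS and 4.68% in Ctrl, with a median difference of 4.55 points and a range from 2.26 to 34.4. In both directions the lower group was nearly unmethylated, with a level under 1% in 550 of the 581 regions (94.7%). The share among all annotated CHH regions was 91.5%, so such low levels were not particular to promoters and exons. For comparison, the authors' profile over all genes gave a median CHH level of 0.351% in CUMS and 0.318% in Ctrl in the 50 bins of the 2000 bp upstream of genes. In gene bodies the corresponding medians were 0.355% and 0.329%, and CUMS was higher in all 150 bins of the profile, by 0.0232 to 0.0433 points. The higher group of every listed region stood above these averages, which follows from the choice of regions, since the smallest difference was 2.22 points. The levels of the lower group were mostly below the averages.

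**Figure D1:**
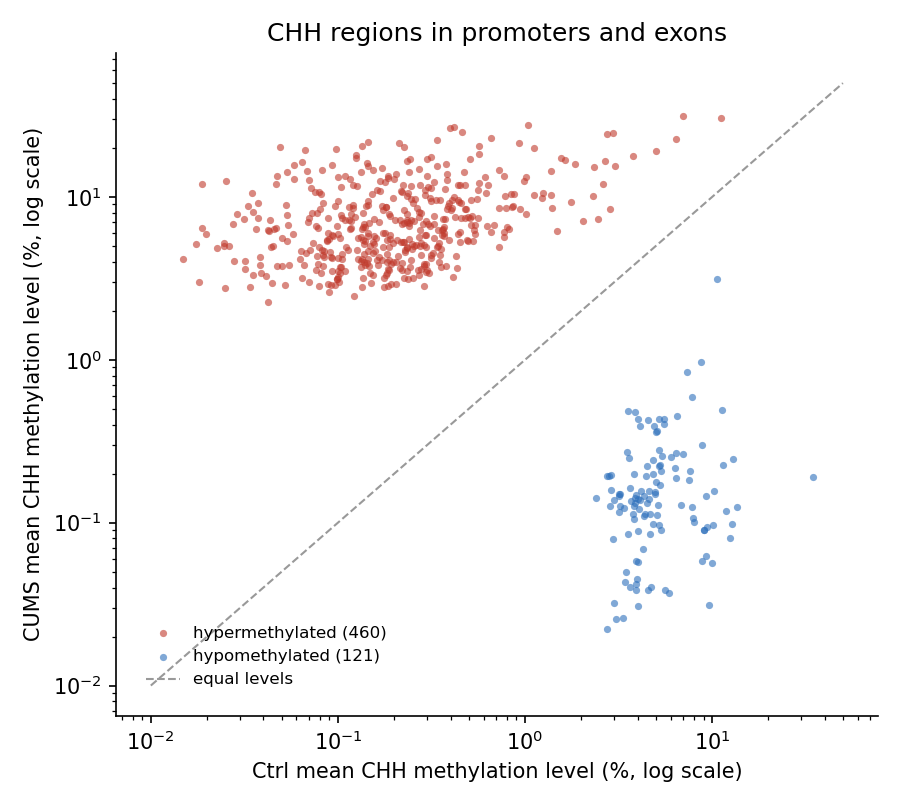
Mean CHH methylation level of each of the 581 regions in Ctrl (x axis, percent, log scale) and in CUMS (y axis, percent, log scale), with hypermethylated regions in red and hypomethylated regions in blue. The 460 hypermethylated regions form a band with Ctrl levels mostly under 1%, the 121 hypomethylated regions form a band with CUMS levels mostly under 1%, and no region lies near the dashed line of equal levels.

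The sequences upstream of genes with a CHH region across the TSS show how dense CHH sites are in such stretches. The windows printed here belong to the hypermethylated and hypomethylated TSS regions with the largest region score (2 in each direction). Only genes matched to a single RefSeq promoter window were used, so genes such as Rapgef1 were passed over. They are 250 bases before the start on the gene's strand from RefSeq (GRCr8 assembly), 5′ to 3′, and capitals mark CHH cytosines on the printed strand. The DMR coordinates belong to mRatBN7.2, so the position of each DMR within its window was not derived.
Barhl2: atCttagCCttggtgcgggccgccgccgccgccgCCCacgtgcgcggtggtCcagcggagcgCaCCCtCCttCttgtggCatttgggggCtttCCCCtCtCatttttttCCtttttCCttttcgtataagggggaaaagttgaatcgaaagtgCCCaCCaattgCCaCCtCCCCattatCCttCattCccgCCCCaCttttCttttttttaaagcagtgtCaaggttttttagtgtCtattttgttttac
Nsg2: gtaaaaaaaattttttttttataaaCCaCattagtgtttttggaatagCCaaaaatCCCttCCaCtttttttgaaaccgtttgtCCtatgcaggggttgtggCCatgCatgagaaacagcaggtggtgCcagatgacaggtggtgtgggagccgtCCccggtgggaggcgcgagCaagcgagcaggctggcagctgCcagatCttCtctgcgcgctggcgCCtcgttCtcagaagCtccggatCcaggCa
Ctag2: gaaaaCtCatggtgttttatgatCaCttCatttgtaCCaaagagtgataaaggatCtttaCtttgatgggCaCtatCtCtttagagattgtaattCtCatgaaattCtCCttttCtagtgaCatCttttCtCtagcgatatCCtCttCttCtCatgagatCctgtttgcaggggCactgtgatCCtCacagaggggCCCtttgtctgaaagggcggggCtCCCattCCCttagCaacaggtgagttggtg
Mrc1: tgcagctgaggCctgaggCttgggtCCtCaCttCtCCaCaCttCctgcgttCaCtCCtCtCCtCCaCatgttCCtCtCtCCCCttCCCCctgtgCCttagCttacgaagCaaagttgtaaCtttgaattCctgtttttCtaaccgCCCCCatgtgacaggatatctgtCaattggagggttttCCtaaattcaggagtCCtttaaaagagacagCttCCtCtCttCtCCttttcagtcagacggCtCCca
The Barhl2 window (chr14:3485059-3485308, plus strand) holds 51 CHH cytosines on this strand and 15 CG sites. The Nsg2 window (chr10:16165916-16166165, minus strand) holds 29 CHH cytosines and 11 CG sites. The TSS regions of both genes were hypermethylated in CUMS. The Ctag2 window (chrX:148567424-148567673, plus strand) holds 45 CHH cytosines and 2 CG sites, and the Mrc1 window (chr17:82157475-82157724, plus strand) holds 62 CHH cytosines and 4 CG sites. Those of these genes were hypomethylated in CUMS. Only 51.5% of the genes with a promoter or TSS region had a RefSeq window. Their windows had a median of 9.33 CG and 32.7 CHH cytosines per 100 bp, against 4.67 and 32.3 in all RefSeq windows. The median GC content was 57% against 51.7%. The unmatched genes may differ, and no difference in base composition was tested.

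The 36 regions that cover a TSS comprised 29 hypermethylated and 7 hypomethylated regions. Barhl2 encodes a homeobox transcription factor of the developing nervous system. Its region (chr14:3340087-3340639, 147 cytosines) was annotated to the promoter, TSS, 5′ untranslated region and exon, lay in a CpG island and had a level of 7.29% in CUMS against 0.156% in Ctrl. In the gene AABR07045337.1 a region with a repeat annotation reached 11.8% in CUMS against 0.222% in Ctrl. In Nsg2, which encodes a neuronal endosomal protein, the levels were 6.56% and 0.140% (chr10:15661258-15661635). In the opposite direction, the region of Rapgef1 (chr3:12897987-12898270, 122 cytosines), a guanine nucleotide exchange factor that activates Rap1, a small GTPase involved in endothelial junctions, had a level of 0.118% in CUMS against 11.8% in Ctrl. The region covered the promoter, TSS and first exon and also lay in a CpG island. In Ctag2, a cancer/testis antigen gene on the X chromosome, the levels were 0.113% in CUMS and 4.68% in Ctrl. In Mrc1, which encodes the mannose receptor of macrophages, they were 0.145% and 3.19% (chr17:77248813-77249307, 191 cytosines).

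The largest group consisted of 345 promoter regions, of which 279 were hypermethylated and 66 hypomethylated. The number of bases upstream of a gene that the annotation counts as promoter is not given in the sources used here. The largest difference among the hypermethylated regions was that of Olr943, an olfactory receptor gene, with 27.8% in CUMS against 1.04% in Ctrl (chr7:3393010-3393291, 119 cytosines). Il22ra1, a subunit of the interleukin 22 receptor, followed with 26.8% and 0.419% in a region that also carried a repeat annotation (chr5:147959123-147959423). The promoter region of ENSRNOG00000062855 had levels of 26.6% and 0.398%. Maml2, a coactivator of Notch signalling, was an exception to the nearly unmethylated Ctrl level, with 31.5% in CUMS and 7.02% in Ctrl (chr8:10267126-10267386). Vps13c, which encodes a lipid transfer protein, had the highest region score of a gene with a symbol among the hypermethylated promoter regions, with 20.6% and 0.568% in a CpG island shore. The region of ENSRNOG00000063092 had 15.4% and 0.340%.

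Among the hypomethylated promoter regions, that of a U2 spliceosomal RNA gene on the X chromosome had a level of 0.246% in CUMS against 13.0% in Ctrl. Nrxn2 encodes neurexin 2, a presynaptic adhesion protein, and its region in a CpG island had 0.0986% and 12.8% (chr1:203805969-203806309, 131 cytosines). Nenf, which encodes the secreted neurotrophic factor neudesin, had 0.0803% in CUMS and 12.5% in Ctrl (chr13:102895146-102895456). In Gpc2, a heparan sulfate proteoglycan of the glypican family, the levels were 0.971% and 8.70%. The gene AABR07065466.1 had 0.0963% and 10.1%.

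Exons were annotated to 291 regions, with 227 hypermethylated and 64 hypomethylated. An intron row was also present for 204 of the 291, and whether these regions reached beyond the exon was not examined. F11 encodes coagulation factor XI, and its exon region had a level of 21.6% in CUMS against 0.211% in Ctrl (chr16:46996428-46996726, 153 cytosines). In Ccdc81, a coiled-coil domain gene, the levels were 20.4% and 0.135% (chr1:143747056-143747362, 197 cytosines). The largest difference of all 581 regions was found in the hypomethylated direction, in an exon of ENSRNOG00000068065, with 0.190% in CUMS and 34.6% in Ctrl. That region was also the shortest, with 164 bp (chr11:35438850-35439013, 83 cytosines). A region shared by Acy3, an aminoacylase gene, and Tbx10, a T-box transcription factor gene, had 0.126% and 13.6%. Acsl1, which activates long-chain fatty acids for lipid synthesis and oxidation, had 0.0903% in CUMS and 9.07% in Ctrl (chr16:45766051-45766480, 188 cytosines). The exon region of ENSRNOG00000064643 had 0.157% and 10.2%.

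Within the untranslated regions and gene ends the same mixture of directions was seen. The 60 regions of 5′ untranslated regions comprised 46 hypermethylated and 14 hypomethylated regions. Kcnip4, a modulator of A-type potassium channels, had 11.9% in CUMS against 0.120% in Ctrl, and Tmem63c, a transmembrane protein gene, had 6.89% and 0.241%. The 54 regions of 3′ untranslated regions comprised 44 hypermethylated and 10 hypomethylated regions. Galnt17, a glycosyltransferase of the O-glycosylation pathway, had 25.2% in CUMS against 0.460% in Ctrl (chr12:25780009-25780280, 135 cytosines). Tox2, a high mobility group box protein, had 0.0311% and 9.65% (chr3:151979890-151980216). At the 21 TES regions, 16 were hypermethylated and 5 hypomethylated. Rprm, a p53-dependent inhibitor of the cell cycle, had 0.128% in CUMS and 6.79% in Ctrl in the hypomethylated direction. Adam34, a metallopeptidase domain gene, had 8.44% and 0.936% in the hypermethylated direction. The gene AABR07026997.2 had 0.0858% and 4.63% in the hypomethylated direction.

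**Figure D2:**
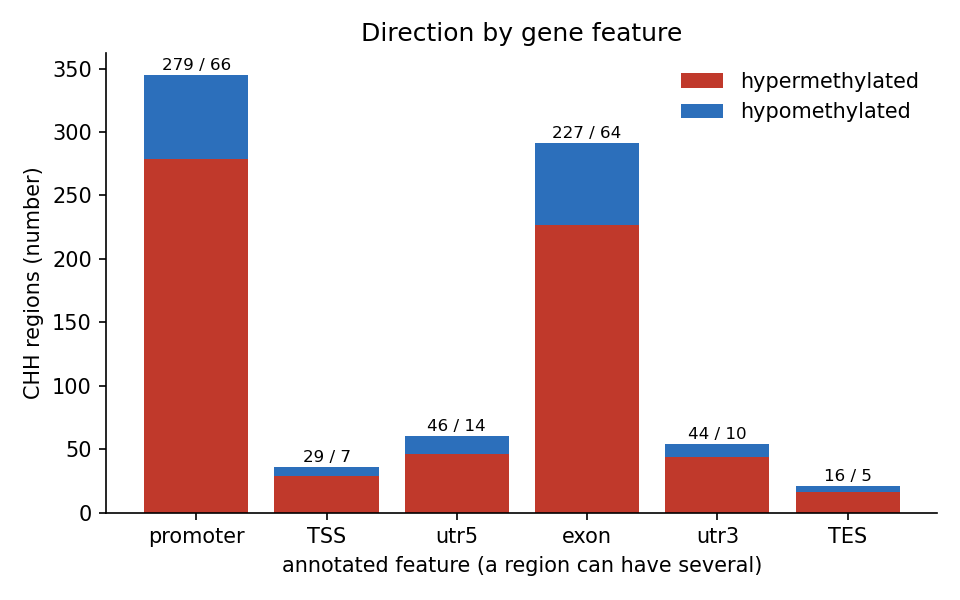
Number of CHH regions (y axis) annotated to each gene feature (x axis), divided into hypermethylated (red) and hypomethylated (blue) regions, with both numbers above each bar. Promoters (345) and exons (291) held most regions, hypermethylated regions outnumbered hypomethylated regions in every feature, and a region with several features is counted in each.

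Promoter and exon regions differed little in direction but more in the size of the difference. The hypomethylated share was 19.1% in promoter regions and 22.0% in exon regions, a difference of -2.86 percentage points. A total of 286 regions had a promoter or TSS row only, 236 had an exon, untranslated region or TES row only, and 59 had both. The median difference between the groups, regardless of direction, was 6.96 points in the first class and 4.84 points in the second. A difference of at least 10 points was reached by 93 of 345 promoter regions (27.0%) and by 31 of 291 exon regions (10.7%). Over all 581 regions, 115 reached 10 points (19.8%), compared with 30.0% of all annotated CHH regions, and 16 reached 20 points (2.75%), compared with 4.58%. The share with a large difference was therefore below the background, and it was lower in exons than in promoters. Regions with an exon, untranslated region or TES row only were also longer, with a median of 338 bp and 134.5 cytosines. Those with a promoter or TSS row only had 281 bp and 126 cytosines. The list was limited by a score that grows with the number of cytosines, and the part of length in this contrast was not tested. The study's methods state a minimum difference of 10% for the final DMRs, so most of the 581 listed regions lie under that limit.

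The 2 closest groups of CHH regions were those in introns only (3507 regions) and those outside genes (5908 intergenic regions). The hypomethylated share was 20.8% in promoters and exons, 22.8% in introns and 20.8% in intergenic regions. The median difference between CUMS and Ctrl was 5.72 points in promoters and exons, 7.24 points in introns and 7.58 points in intergenic regions. The promoter and exon regions were somewhat longer, with a median length of 304 bp against 270 bp in introns and 273.5 bp between genes. They held a median of 131 CHH cytosines, and the density was 40.2 cytosines per 100 bp against 45.6 in introns and 44.4 between genes. All 3 groups come from the same list, which was limited by a score that grows with the number of cytosines, so size, length and difference are not independent of each other.

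**Figure D3:**
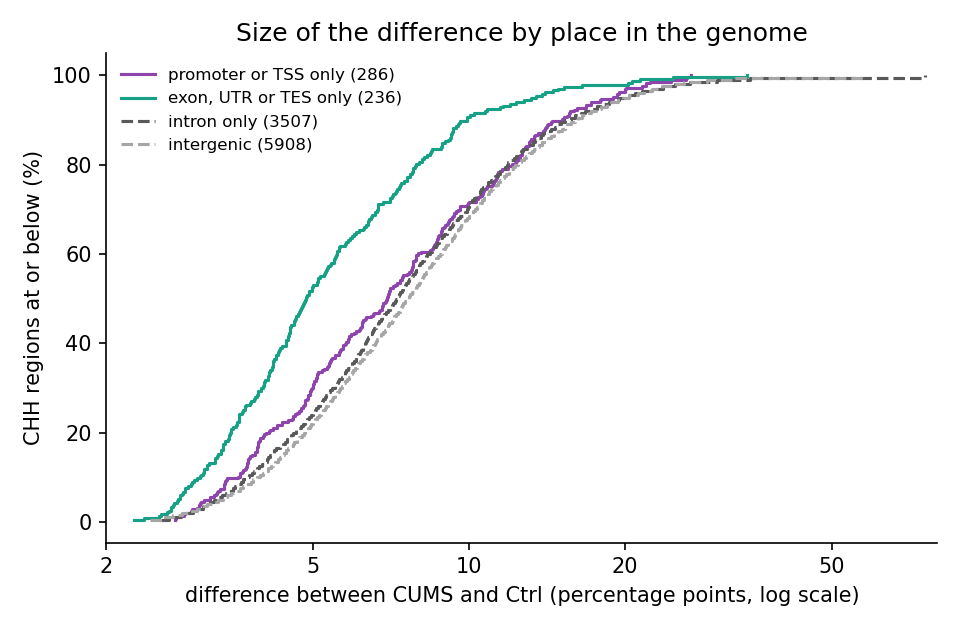
Share of CHH regions (y axis, percent) with a difference between CUMS and Ctrl at or below the value on the x axis (percentage points regardless of direction, log scale), for regions with a promoter or TSS row only, regions with an exon, UTR or TES row only, intron-only regions and intergenic regions. The curve of the 236 exon regions lies to the left with a median of 4.84 points, and the curve of the 286 promoter regions, with a median of 6.96 points, runs close to those of introns and intergenic regions.

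Regions of other contexts in the same place were examined next, because the CG and CHG levels were not used to choose the regions. Of the 581 regions, 115 (19.8%) overlapped a CHG region by at least 1 bp, and 23 (3.96%) overlapped a CG region. The corresponding shares were 7.21% and 0% of the intron-only regions and 6.13% and 0.118% of the intergenic regions. Overlap with a CHG region was found for 38.9% of TSS regions, 31.3% of exon regions and 13.9% of promoter regions. Overlap with a CG region was found for 9 of the 36 TSS regions (25%). The share that overlapped either context was 20.3%, and fell to 7.57% when at least 50% of the CHH region had to be covered, against 1.82% in introns and 1.49% between genes. Among regions with a difference of at least 10 points it was 5.22%, against 1.86% and 1.61%. The lists were called by context from the same libraries, so the contexts share reads and samples, and the part of site density in these shares was not tested.

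**Figure D4:**
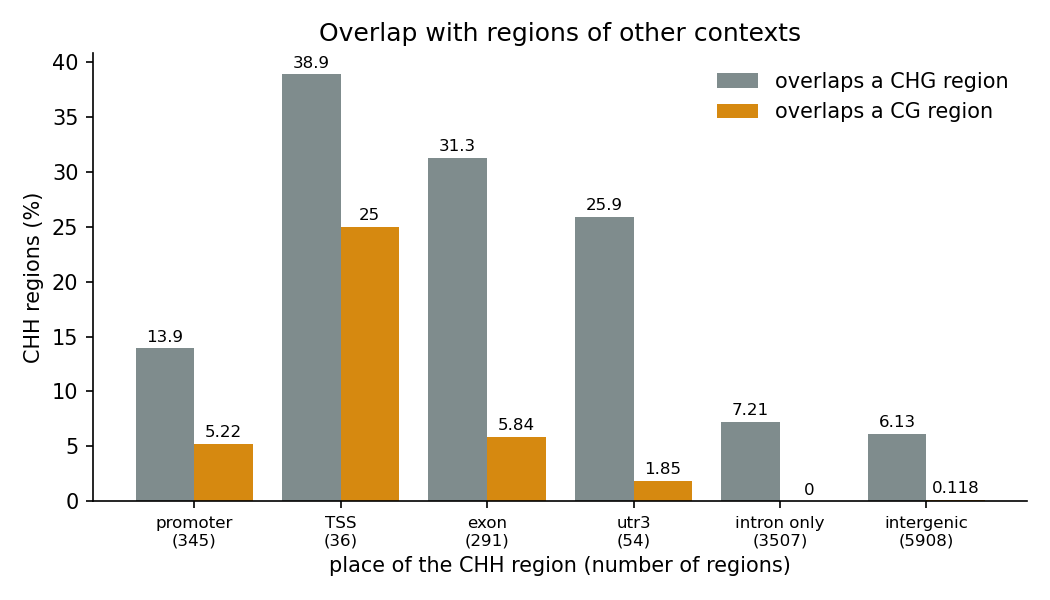
Share of CHH regions (y axis, percent) that overlap a CHG region (grey) or a CG region (orange) by at least 1 bp, by annotated place (x axis, with the number of CHH regions). TSS regions had the highest shares, 38.9% for CHG and 25% for CG, and intron-only and intergenic regions the lowest.

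In all 119 pairs of a CHH and a CHG region, the contexts had the same direction. The same held for 258 of 262 pairs of intron-only regions and all 375 pairs of intergenic regions. The pairs in promoters and exons covered 92 hypermethylated and 23 hypomethylated CHH regions. The median levels were also alike, with 5.12% for the CHH regions and 5.78% for the CHG regions in the higher group. All annotated hypermethylated CHG regions in promoters and exons had a median of 4.40% in CUMS. Both lists hold only called regions, and agreement of levels within pairs was not measured. Ryr1, the calcium release channel of skeletal muscle, had a CHH level of 4.16% and a CHG level of 5.04% in CUMS, against 0.144% and 0.0378% in Ctrl (chr1:84327155-84327747, 227 CHH cytosines). In the region of Abhd14a and the aminoacylase gene Acy1, the CHH level was 16.4% and the CHG level 12.5% in CUMS, against 0.0645% and 0.0386% in Ctrl. In Tmem63c they were 6.89% and 7.21% in CUMS. In the hypomethylated Ctag2 region they were 4.68% and 6.18% in Ctrl, against 0.113% and 0.0211% in CUMS.

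All 23 regions that overlapped a CG region were hypermethylated, and the 24 pairs had the same direction. Of all 2644 CG regions in promoters and exons, 96.3% were hypermethylated, so this count is close to the CG background. Of these regions, 20 lay in a CpG island. The CG sites had a median of 16.6% in CUMS and 5.07% in Ctrl, so that, unlike CHH and CHG sites, they were partly methylated in the lower group as well. Gpc1, a glypican that carries heparan sulfate on the surface of endothelial and other cells, had a CHH level of 13.8% in CUMS against 0.385% in Ctrl (chr9:93395462-93395881). The overlapping CG region of 105 cytosines had 33.4% and 7.14%, and an overlapping CHG region had 8.96% and 0.0222%. Rap2a, a Ras-related small GTPase, had a CHH level of 10.4% against 0.0814%, and its CG level was 17.8% against 3.91%. The CG region of Barhl2 had 12.9% and 5.73%. The other CG overlaps included the promoters or exons of Ntrk2, the receptor of brain-derived neurotrophic factor, with CHH levels of 6.20% and 0.0427% and CG levels of 17.1% and 3.90%, and of Shank1, a postsynaptic scaffold protein, with CHH levels of 8.49% and 0.0806%. Ntrk2 and Shank1 were named after their values had been seen.

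**Figure D5:**
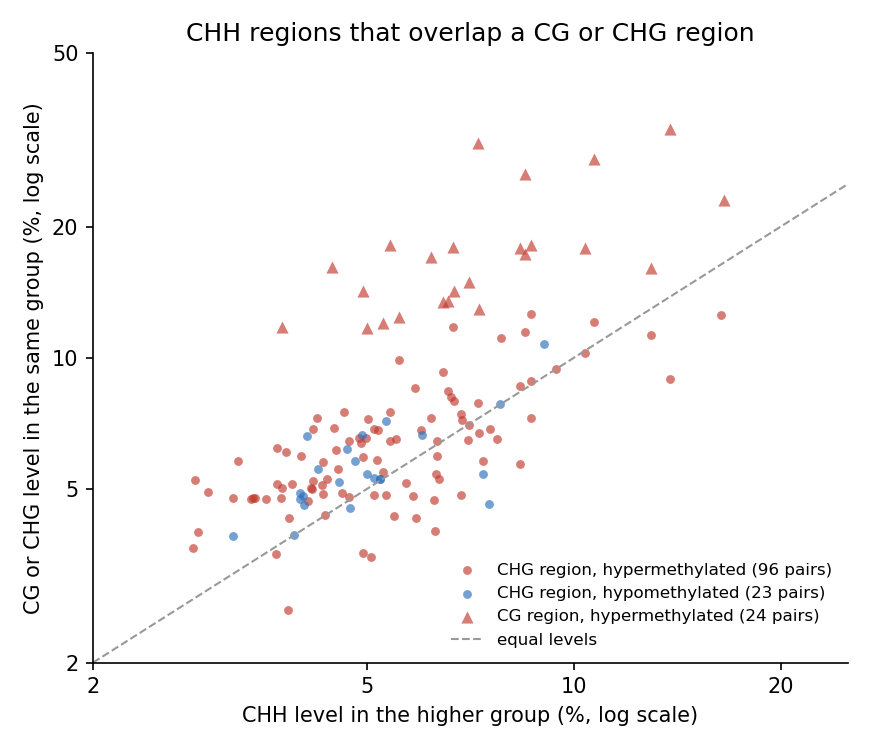
CHH methylation level in the higher group (x axis, percent, log scale) against the level of the overlapping CHG region (circles) or CG region (triangles) in the same group (y axis, percent, log scale), with hypermethylated pairs in red and hypomethylated pairs in blue. The 119 CHG pairs scatter around the dashed line of equal levels, and the 24 CG pairs, all hypermethylated, lie above it.

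The surroundings of the regions were compared with those of other CHH regions. CpG islands were annotated to 49 regions (8.43%), against 0.143% of intron-only and 0.102% of intergenic CHH regions. Island shores were annotated to 149 (25.6%), against 2.71% and 0.575%. In the 49 island regions, 39 were hypermethylated and 10 hypomethylated, and 36 of the 49 had a promoter row. Repeats were annotated to 229 regions (39.4%), compared with 48.6% of intron-only and 55.1% of intergenic regions. The most frequent repeat classes were SINE/Alu with 58 regions, LTR/ERVK with 55 and LINE/L1 with 36, and the numbers of hypermethylated and hypomethylated regions were 44 and 14, 47 and 8, and 34 and 2. The LINE/L1 regions numbered 275 and 78 in introns and 833 and 226 between genes. Reads from repeat copies are harder to place, and whether this affected the levels was not tested. On the X chromosome there were 37 regions (6.37%), compared with 3.28% of intron-only and 5.01% of intergenic regions. Of the 37 regions, 32 were hypermethylated. On all 21 chromosomes with such regions the hypermethylated regions were the majority, with shares from 58.3% on chromosome 16 to 88.9% on chromosome 14.

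MicroRNA genes were represented by 9 genes in 8 regions, all hypermethylated, against a hypermethylated share of 78.5% among all annotated CHH regions, and a group of this size does not set the microRNAs apart. Mature sequences from RefSeq (GRCr8 assembly) were found for 8 of these genes and are shown for a single arm each, 5′ to 3′, to show that the group is not a single seed family, with the seed (bases 2 to 8) in capitals.
rno-miR-181a-5p: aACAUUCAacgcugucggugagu
rno-miR-182: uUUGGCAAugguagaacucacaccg
rno-miR-135a-5p: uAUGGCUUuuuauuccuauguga
rno-miR-192-5p: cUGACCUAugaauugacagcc
rno-miR-201-5p: cACUCAGUaaggcauuguuc
rno-miR-547-3p: aUUGGUACuucuuuaagugaga
rno-miR-3559-5p: uGACAGACuuaguacuacauga
rno-miR-6316: cAUGUCUGucucuguggcacaca
No seed was shared among the 13 mature sequences of these genes. The promoter region of Mir124-1, a microRNA gene expressed in neurons, had a level of 15.7% in CUMS against 0.0933% in Ctrl (chr15:38840824-38841051, 105 cytosines). Mir201 and Mir547 shared a promoter region on the X chromosome with 8.78% and 0.0959% (chrX:146669092-146669393). The region of Mir192 covered the exon and TES and had 4.98% and 0.342% (chr1:203565015-203565451). For Mir181a2 the levels were 4.66% and 0.0846% (chr3:22613669-22613912), for Mir182 they were 3.72% and 0.355%, and for Mir135a they were 4.47% and 0.105%. Mir3559 had 6.89% and 0.146%, and Mir6316 had 9.56% and 0.408%. The latter 5 genes lie outside the naming rule and were included because the group is small.

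Small noncoding RNA genes as a whole, the microRNAs included, had 26 regions, with 22 hypermethylated and 4 hypomethylated. U6 spliceosomal RNA genes had 6 regions at different loci, with 5 hypermethylated and 1 hypomethylated, and U4 genes had 4 regions. The U4 promoter region at chr5:96256227-96256442 had 13.4% in CUMS against 0.184% in Ctrl. By contrast, the region at chr6:132176501-132176906, which U4 shares with the promoter of Mta1, a chromatin remodelling subunit, had 0.151% and 3.17%. A snoRNA gene of the SNORA17 family (AABR07009039.1) had 12.5% and 0.0251%, and another of that family (AC134063.1) had 0.215% and 6.36% in the opposite direction. These genes exist in many near-identical copies, so the assignment of reads to a given copy is uncertain.

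Gene lists with a known role in these cells or in DNA methylation were counted next. Of 37 endothelial and barrier genes, 1 had a CHH region in a promoter or exon. This was Fzd4, the receptor of norrin that is needed for the blood-brain and blood-retina barriers. Its last exon and 3′ end had 10.3% in CUMS and 1.12% in Ctrl (chr1:143285599-143285834, 106 cytosines). The same region was also annotated to the promoter of ENSRNOG00000070027. None of 9 genes assayed by PCR or blotting in the same project (among them Cacna1c, Vcam1, Cldn5 and Ocln) and none of 33 genes of DNA methylation and homocysteine metabolism had such a region. Markers of neurons (8 genes), astrocytes (6), microglia (6) and oligodendrocytes (7) had no region. Of 5 pericyte markers, Cspg4, which encodes the NG2 proteoglycan, had 3.63% and 0.185% at its 3′ end (chr8:57299644-57300188, 226 cytosines). Voltage-gated calcium channel genes, protocadherins, Hox genes and histone genes had no region either. Of 23154 RefSeq protein-coding genes, 429 (1.85%) matched by symbol a gene with a region, so counts of 0 or 1 in such short lists are near the share of all genes. The part of gene length was not tested.

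Gene families were counted beside a hypermethylated share of 78.5% among all annotated CHH regions, and no family was tested against it. Olfactory receptor genes, 2 of them pseudogenes, had 13 regions, of which 11 were hypermethylated and 2 hypomethylated. Besides Olr943, the promoter region of Olr439 had 9.16% in CUMS against 0.455% in Ctrl, and the region of Olr6 had 7.49% and 0.123%. Solute carrier genes had 9 regions, with 6 hypermethylated and 3 hypomethylated. Matched by symbol, 9 of 397 RefSeq solute carrier genes (2.27%) had a region, near the 1.85% of all protein-coding genes. Slc19a2, a thiamine transporter, had 15.4% in CUMS and 2.35% in Ctrl in its promoter (chr13:76600331-76600567). Slc6a17, a vesicular amino acid transporter of neurons, had 6.65% and 0.0986%, and Slc25a38, a mitochondrial glycine carrier, had 0.0387% and 5.59%. Zinc finger genes had 6 regions, with 4 hypermethylated and 2 hypomethylated. Matched in the same way, 4 of 476 RefSeq zinc finger genes (0.840%) had a region. Such shares were not computed for the olfactory receptor and ribosomal protein genes. Zfp598, a ubiquitin ligase that senses stalled ribosomes, had 5.77% and 0.145%, whereas Zfp420 had 0.0974% and 5.22% across its TSS in a CpG island. Of 8 genes described as ribosomal proteins, their pseudogenes or similar genes, 7 were hypermethylated and 1 hypomethylated, and the region of Rps4x had 11.9% in CUMS and 0.0467% in Ctrl.

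Most genes had a single region, and 5 genes had several. Sspo, which encodes SCO-spondin of the subcommissural organ, had 3 exon regions within a stretch of chromosome 4. Those at chr4:77430519-77430813 and chr4:77436277-77436637 had 4.38% and 3.68% in CUMS against 0.278% and 0.215% in Ctrl. The region at chr4:77444915-77445256 had the opposite direction, with 0.0402% in CUMS and 4.72% in Ctrl. Znf768 likewise had neighbouring promoter regions of opposite direction. At chr1:181970633-181970880 the levels were 0.113% in CUMS and 3.78% in Ctrl, and at chr1:181971044-181971311 they were 4.04% and 0.0278%. A single gene could therefore carry both directions. Znf768 entered by its list and its second region was named after the values had been seen.

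The annotated CHH regions were the 10000 with the largest region score out of 145823 CHH regions of the full list, apart from 4 without annotation. The members with the lowest scores inside this limit were Dusp9, a phosphatase of MAP kinases, with 4.45% in CUMS and 0.138% in Ctrl, and Cftr, the chloride channel, with 14.8% and 0.270%. The first CHH regions outside the limit lay on chromosomes 9 and 7 and had 2.44% against 0.0716% and 2.62% against 0.0844%. CHH regions of promoters and exons outside the limit were not analysed here.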

How the data were processed

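DNA methylation was measured in 6 samples of sorted hippocampal BMECs (3 CUMS, 3 Ctrl, grouped by sample title). Per the study's methods, the DNA was treated with the enzymes TET2 and APOBEC3A, and unmethylated lambda DNA was added as a negative control. No conversion rate is given there. Unmethylated cytosine that escapes conversion is read as methylated and raises every level. Per the submitters' processing notes, reads were checked with FastQC 0.11.3, trimmed with fastp 0.20.0 and aligned to mRatBN7.2 with Bismark 0.16.3 and Bowtie2. DMRs were called with DSS. Methylation levels are deposited as fraction values, the authors' mean per group, and were multiplied into percent. The deposited areaStat score adds up the DSS statistics of a region's cytosines. It was used only to order regions and is not printed. The deposited difference column, a comparison of the authors, was not used, and differences were recomputed from the group means. No counts, coverage or sample values were present in the tables, so no test, interval or replicate error could be given. The study's methods report a coverage range for the 6 samples, but the depth of each region is unknown.

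Rows of the annotation table were joined to regions by chromosome, start, end and context (Python 3.11.15, pandas 2.3.3). Regions with a row in 6 features were taken, and the others were called intron-only or intergenic. Overlap meant at least 1 bp, and the overlap search was tested on simulated data. Gene symbols are those of the annotation and were matched by symbol to RefSeq (GRCr8). The overlap shares of introns and intergenic regions under stricter settings were added after the data were seen. Members, gene lists and alternatives were chosen with earlier results of these data known. Regions named were the 2 of each direction with the largest absolute areaStat in each feature, the 5 of each direction with the largest difference, up to 3 per gene list, genes or symbols with 3 or more regions, the 3 highest overlapping a CG or CHG region and those just inside the limit of the list, with at most 2 genes without symbol per direction. The study's methods state a minimum difference of 10% for the final DMRs, which 115 of the 581 regions (19.8%) reach. The regions were used as listed.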

Additional observations from a re-analysis of the deposited data

How the results depend on the processing

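No paired analysis was possible because only group means were deposited, and leaving out each replicate was not run for the same reason. The hypermethylated share of the promoter and exon CHH regions was 79.2% and ranged from 77.3% to 91.3% over 11 alternatives. It was 86.7% with differences of at least 5 points, 91.3% with at least 10 points and 82.4% among annotated CHH regions with an absolute areaStat at or above the median. The median difference of 5.72 points became 5.34 points without repeats, 7.89 points above the median areaStat and 6.66 points without regions that also have an intron row. The hypomethylated share in promoters minus that in exons stayed between -6.52 and -1.65 points over 9 alternatives. Some alternatives removed none of the 581 regions and returned the main value of both shares. These were at least 50 cytosines, assembled chromosomes only and merging within 1 kb, and they say nothing about stability. The hypomethylated share minus that of all other CHH regions was -0.682 points. It became -4.44 points with differences of at least 5 points and -1.78 points with at least 10 points. The rise of the hypermethylated share at 10 points was thus largely shared by the other CHH regions. The hypomethylated share minus that of the others was positive (0.652 and 0.280 points) without repeats and above the median areaStat. The share that overlapped a CG or CHG region was 20.3%, and was 7.57% when at least 50% of the CHH region had to be covered and 5.22% among regions with at least 10 points. The causes were not tested. The unknown depth of each region limits every value.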

Other observations

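The direction of CHH regions changed with their place in the score order. In the full list of 145823 CHH regions, 89.1% of the 1000 regions with the largest score were hypermethylated, 77.3% of the next 9000, 67.3% of the next 40000, 63.4% of the next 50000 and 60.4% of the remaining 45823. The promoter and exon regions showed the same order, with 82.4% hypermethylated in the first 193, 79.8% in the next 193 and 75.4% in the last 195.

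The direction of neighbouring CHH regions of the full list was counted around the promoter and exon regions. Within 10 kb of the 460 hypermethylated regions there were 622 other CHH regions, of which 63.2% were hypermethylated. Within 10 kb of the 121 hypomethylated regions there were 155, of which 66.5% were hypermethylated. In the full list the share was 64.6%. With windows of 5 kb the shares were 63.1% and 64.9%, and with 50 kb they were 63.1% and 63.4%. The windows were chosen after the data were seen, and no test was made.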
